A study of Mus musculus with 6 samples.

Results

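In all, 9 microRNA (miRNA) assays that usually mark stromal, endothelial or erythroid cells were examined in CD8+ T cells of the mouse. They were chosen by name: mouse-named assays, without the star that marks a passenger strand, for miR-143, miR-145, miR-126, miR-199a, miR-199b, miR-214, miR-451, miR-144 and miR-486. The 9 names matched 9 assays of 345, since miR-126 and miR-199a have an assay for each arm of the hairpin and miR-145 and miR-199b matched none.

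The T cells carry the pMel-1 transgene, which encodes a receptor that recognizes gp100, an antigen of melanoma, and all 6 samples were cultured for 3 days with the cells that primed them. The 3 DC-primed samples were activated by bone marrow-derived dendritic cells matured with LPS, and the 3 B cell-primed control samples by splenic B cells loaded with a human gp100 peptide. The labels give no age or strain, do not say whether the dendritic cells carried peptide or whether priming cells were removed before RNA was extracted, and number the samples by round (1 to 3, with a sample of each group in every round). Levels come from SYBR Green RT-PCR and are given as minus dCt on the log2 scale. A difference of 1 is therefore 2-fold, and a higher value means more miRNA. The threshold cycle (Ct) is the cycle at which the signal is called, so a later Ct means less miRNA. Each assay reads poly(A)-tailed RNA with 1 specific primer, so near-identical miRNAs are poorly told apart, and levels of different assays are not compared.

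miR-143 is abundant in smooth muscle and fibroblasts. miR-199a and miR-214 are processed from the Dnm3os transcript of mesenchymal cells. miR-126 is encoded in Egfl7 and is the best known endothelial miRNA, although blood progenitors and platelets also hold it. miR-144 and miR-451 are cut from the same transcript that GATA-1 drives in red cell precursors, miR-451 by Argonaute 2 without Dicer, and miR-486 is abundant in red cells and muscle.

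RefSeq's mature sequences (build GRCm38.p6) are given for 6 of the 9 members, under the current names miR-126a-3p, miR-214-3p, miR-451a and miR-144-3p for the assays named miR-126-3p, miR-214, miR-451 and miR-144. They are shown with miR-214* (miR-214-5p), the other strand of the miR-214 hairpin, because the results turn on partners cut from 1 hairpin or 1 locus. Capitals mark the seed, bases 2 to 8 from the 5′ end.
miR-199a-5p: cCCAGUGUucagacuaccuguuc
miR-199a-3p: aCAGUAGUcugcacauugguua
miR-214: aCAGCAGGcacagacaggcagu
miR-214*: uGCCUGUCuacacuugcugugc
miR-126-3p: uCGUACCGugaguaauaaugcg
miR-144: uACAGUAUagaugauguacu
miR-451: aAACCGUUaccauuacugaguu

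No seed is shared among these 7 sequences, so they form no seed family. The miR-199a-3p sequence is identical to that of miR-199b-3p, and its assay cannot tell them apart. miR-214 shares its seed with miR-761 alone among the mouse miRNAs of the table. miR-214 lies at chr1:162223438-162223459 and miR-199a-3p of the Mir199a-2 hairpin at chr1:162217883-162217904, both on the plus strand inside the gene bodies of Dnm3 and Dnm3os, with 5444 bases between the hairpins. Further copies of miR-199a-3p and miR-199a-5p lie at chr9:21496498-21496519 and chr9:21496537-21496559 on the minus strand inside Dnm2. miR-126-3p lies at chr2:26591402-26591423 inside Egfl7. miR-144 at chr11:78073047-78073066 and miR-451 at chr11:78073186-78073207 overlap no other gene of the table, and their hairpins are 99 bases apart.

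DC-primed sample 3 stood apart before any comparison. Of the 350 miRNA assays with raw Ct values, of which 345 also have a dCt, 280 had a Ct below 35 in it, against 327 to 341 in the other 5 samples. Over the assays tested, its mean Ct was 30.5, against 26.3 to 28.4. An assay entered the test when its Ct was below 35 in all 6 samples, which left 274 of 345 assays and 6 of the 9 members: miR-143, miR-199a-3p, miR-214, miR-126-5p, miR-451 and miR-486. The other 3 members, miR-126-3p, miR-199a-5p and miR-144, were left out because of DC-primed samples alone. All 9 members had a Ct below 35 in every B cell-primed sample. Of 8 lymphoid marker assays, 7 were below Ct 35 in all 6 samples, among them miR-150 of naive lymphocytes (Ct 20.65 to 27.14) and miR-155 of activated ones (Ct 18.13 to 27.88). The exception, miR-142-3p, present in most blood cells, had no Ct in DC-primed sample 3.

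No member passed the test between the priming conditions. With limma and Benjamini-Hochberg adjustment, 0 of the 6 tested members were called at an adjusted p under 0.05, as were 0 of all 274 assays (0%), of which 24 had an unadjusted p under 0.05. None of those 24 was a member. On the authors' scale 3 tested members were higher and 3 lower after DC priming. Their median difference was 0.33, against 0.07 over all 274 assays, and it was 1.07 without DC-primed sample 1, 0.077 without DC-primed sample 2, -0.0014 without DC-primed sample 3. Leaving out B cell-primed sample 2 gave 0.087. Over all 9 members 4 were higher and 5 lower. Only miR-451 had all 3 DC-primed samples above all 3 B cell-primed samples, as did 5.47% of tested assays, and no tested member had them all below, as did 8.03%. In a bulk sample, fewer cells that hold a miRNA and less of it per cell cannot be told apart.

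**Figure D1:**
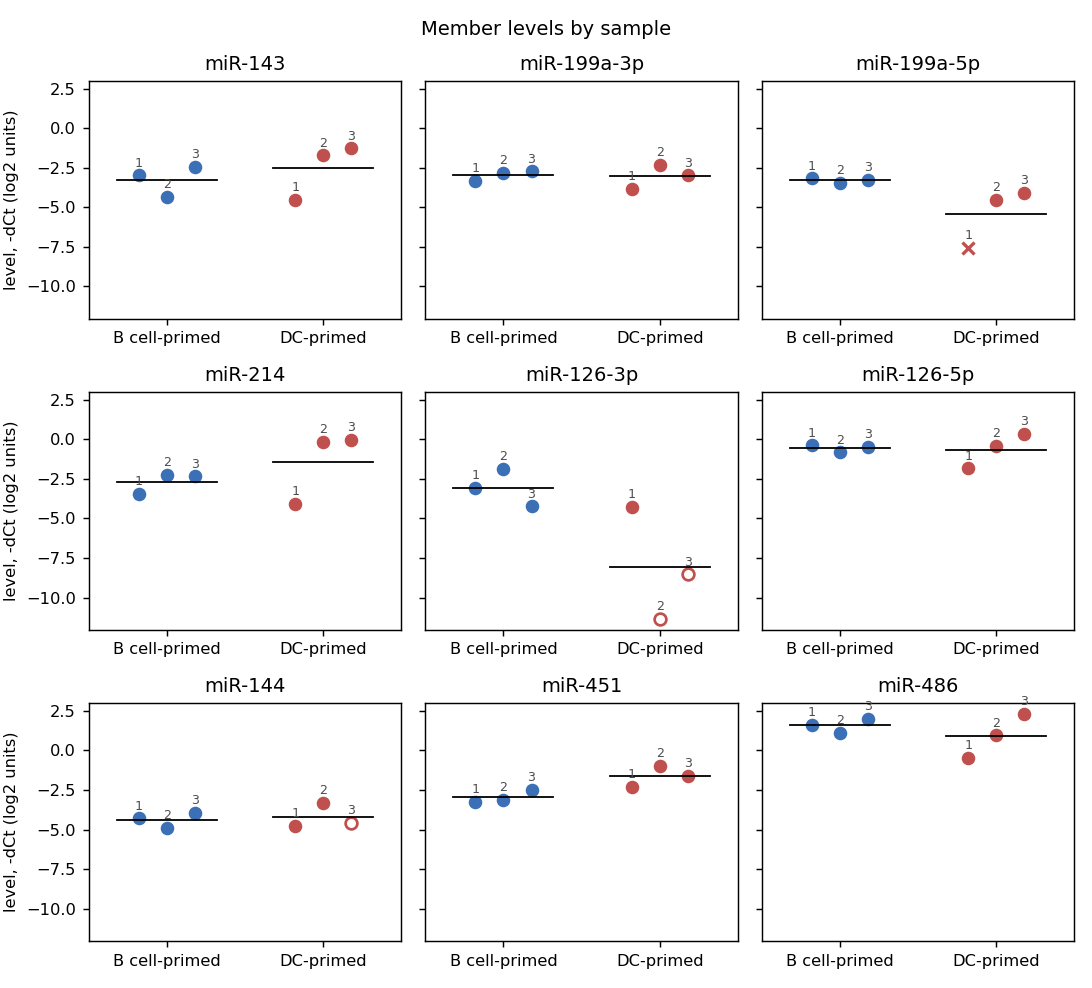
Level of each member (minus dCt, log2 units) in the 3 B cell-primed (blue) and 3 DC-primed (red) samples, numbered by round, with the group mean as a line. Open circles have a Ct of 35 or later and the cross is a value filled in by the authors. The DC-primed points of miR-126-3p run from -4.25 to -11.35, and those of miR-451 all lie above the B cell-primed points.

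Among the stromal members, miR-214, made in fibroblasts and other mesenchymal cells, had the largest positive difference. The level of mmu-miR-214 was -4.07, -0.16 and -0.04 in DC-primed samples 1, 2 and 3, and -3.45, -2.23 and -2.35 in the controls of the same rounds. DC-primed sample 1 was the lowest of all 6 samples and the other 2 DC-primed samples were the highest, so the groups overlapped. The difference was 1.25 ± 1.11 (SE; 95% confidence interval -1.29 to 3.79; limma adjusted p = 0.961), from means of -1.42 ± 2.29 and -2.67 ± 0.67 (SD, n = 3 each). It was 2.57 without DC-primed sample 1, 0.62 without DC-primed sample 2 and 0.56 without DC-primed sample 3. Its raw Ct lay between 28.62 and 30.5 in all 6 samples, and without normalization the difference was -0.08.

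On the authors' scale miR-214*, the passenger strand of the hairpin by name, had the same signs in each round. The same number was subtracted from both strands in a sample. The raw Ct of miR-214* lay between 25.09 and 26.08 in all 6 samples. In raw Ct the signs were the same in rounds 1 and 2 but not in round 3. There miR-214 was later in the DC-primed sample (30.5 against 29.98) and miR-214* was earlier (25.09 against 26.08). The DC-primed minus B cell-primed difference of miR-214* was -0.52, 1.68 and 3.82 in rounds 1, 2 and 3, against -0.62, 2.07 and 2.31 for miR-214. Its difference was 1.66 ± 1.11 (SE; limma adjusted p = 0.794). The log2 ratio of miR-214* over miR-214 ran from 3.52 to 5.41 after DC priming and from 3.9 to 4.63 after B cell priming, so the ranges overlapped. miR-214* had the earlier Ct in all 6 samples, but these are different assays and do not show which strand was more abundant.

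miR-143, a smooth muscle and fibroblast miRNA, had the same order of DC-primed samples. Its level was -4.54, -1.72 and -1.27 after DC priming and -2.99, -4.35 and -2.43 after B cell priming. The difference was 0.74 ± 0.996 (SE; 95% confidence interval -1.53 to 3.01; limma adjusted p = 0.971), and it was negative in round 1, at -1.55, and positive in rounds 2 and 3, at 2.63 and 1.16. Without DC-primed sample 1 it was 1.76, without DC-primed sample 2 it was 0.35, without DC-primed sample 3 it was 0.12 and without B cell-primed sample 2 it was 0.20. Without normalization it was -0.59. The size of the difference thus rested on single samples of both groups.

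The arms of miR-199a, which shares the Dnm3os transcript with miR-214, gave different readings. miR-199a-3p was at -3.83, -2.32 and -2.97 after DC priming and -3.32, -2.81 and -2.72 after B cell priming, and the difference was -0.09 ± 0.68 (SE; 95% confidence interval -1.64 to 1.45; limma adjusted p = 0.986). These groups overlapped, with the highest and the lowest sample both DC-primed. For miR-199a-5p the Ct was 32.98 and 34.55 in rounds 2 and 3 of DC priming, where round 1 gave none, and 29.52, 30.57 and 30.88 in the controls. The deposited level of -7.58 for that sample was filled in by the authors from a Ct of 33.765, the mean of the other 2 DC-primed samples.

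The filled-in value carried much of the miR-199a-5p difference. DC-primed sample 1 had early Ct values in general, so a Ct averaged from later samples gave a level of -7.58, while the levels measured in the other 2 were -4.52 and -4.09. With it the difference was -2.11, and the authors' deposited table gives a fold change of 0.231 with a paired p of 0.209. Without it the difference was -1.02, from 2 DC-primed and 3 B cell-primed samples. Why DC-primed sample 1 gave no Ct was not tested. The Ct limit for entering the test is a level of -8.82 in that sample, below the filled-in -7.58. If miR-199a-5p was past that limit there, its level was below -8.82 and the difference was lower than -2.11. Leaving the sample out would then make the difference look too small. Both measured DC-primed levels lay below the B cell-primed levels of -3.17, -3.45 and -3.25. With the filled-in value kept, scaling to 2 small reference RNAs, snoRD47 and RNY3, gave -0.88, and without it the sign turned, at 0.48. That turn likewise leaves out a sample whose level may lie below the limit.

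miR-126, the endothelial member, had the largest deposited difference of any member, in 1 of its arms. The Ct of miR-126-3p was 30.43, 39.81 and 38.99 in rounds 1, 2 and 3 of DC priming, and 29.41, 28.98 and 31.86 in the controls. DC-primed sample 1 was thus close to the B cell-primed samples, and DC-primed samples 2 and 3 were beyond the limit of 35. The deposited levels were -4.25, -11.35 and -8.53 against -3.06, -1.86 and -4.23, and DC-primed sample 1 lay only just below B cell-primed sample 3. The difference in rounds 1, 2 and 3 was -1.19, -9.49 and -4.30.

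The deposited mean difference of miR-126-3p was -5.00, and the authors' deposited table gives a fold change of 0.0313 with a paired p of 0.175. A Ct near 39 gives little more than a bound. With both late Ct values set to 35, miR-126-3p was at least 4.18-fold lower in DC-primed cells (-2.06 on the log2 scale), with 1 of 3 DC-primed samples measured. On that basis the difference was -3.39 without normalization and -0.84 relative to snoRD47 and RNY3. With no detection filter, limma gave an adjusted p of 0.535. Without DC-primed sample 2 the deposited difference was -3.34.

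miR-126-5p, cut from the same hairpin, was below Ct 35 in every sample. It was at -1.83, -0.43 and 0.33 after DC priming and -0.39, -0.82 and -0.47 after B cell priming. The difference was -0.09 ± 0.74 (SE; 95% confidence interval -1.78 to 1.60; limma adjusted p = 0.986), and DC-primed samples 1 and 3 were the lowest and the highest of the 6. Of 329 assays with a Ct below 35 in DC-primed sample 1 and every B cell-primed sample, 49 had a Ct of 35 or later in DC-primed sample 3. In DC-primed sample 2 there were 9, and all 9 were also late in DC-primed sample 3, miR-126-3p among them. With a Ct below 32 in DC-primed sample 1 and every B cell-primed sample, 19 of 280 assays were late in DC-primed sample 3. Of the 280, 3 were late in DC-primed samples 2 and 3: miR-126-3p, let-7i* and miR-449a.

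The erythroid members differed among themselves. miR-451, which protects red cells from oxidative stress, was at -2.32, -0.99 and -1.62 after DC priming and -3.26, -3.12 and -2.48 after B cell priming. The groups did not overlap, and it was the only tested member with 1 sign in all rounds, at 0.94, 2.13 and 0.86, as 25.5% of tested assays were. The difference was 1.31 ± 0.67 (SE; 95% confidence interval -0.22 to 2.84; limma unadjusted p = 0.0852, adjusted p = 0.685). It ranked 27 of 274 by size from the highest. It was 0.98 to 1.64 with any single sample left out, but -0.02 without normalization, where the groups overlapped, and 2.53 relative to snoRD47 and RNY3. The authors' deposited table gives a fold change of 2.47 with a paired p of 0.0860.

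miR-144 lies beside miR-451 and is made with it in red cell precursors. Its level was -4.78, -3.30 and -4.56 after DC priming and -4.29, -4.88 and -3.96 after B cell priming, a difference of 0.16 with overlapping groups. Its Ct of 35.02 in DC-primed sample 3 was just beyond the limit, and the sign turned without DC-primed sample 2, at -0.30, or B cell-primed sample 2, at -0.09. With a limit of 38 limma gave an adjusted p of 0.985.

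miR-486, abundant in red cells and muscle, was at -0.47, 0.96 and 2.30 after DC priming and 1.63, 1.12 and 2.00 after B cell priming. The lowest and the highest of the 6 were DC-primed samples 1 and 3. The difference was -0.66 ± 0.83 (SE; 95% confidence interval -2.54 to 1.23; limma adjusted p = 0.971). It was -1.34 without DC-primed sample 3 and 0.04 without DC-primed sample 1, while scaling to snoRD47 and RNY3 gave 0.57. Without normalization it was the only one of the 6 tested members whose DC-primed samples all lay below the controls, and miR-451 was not separated. On that scale the median difference over all 274 assays was -1.26, and the share of assays with all DC-primed samples below was not taken.

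**Figure D2:**
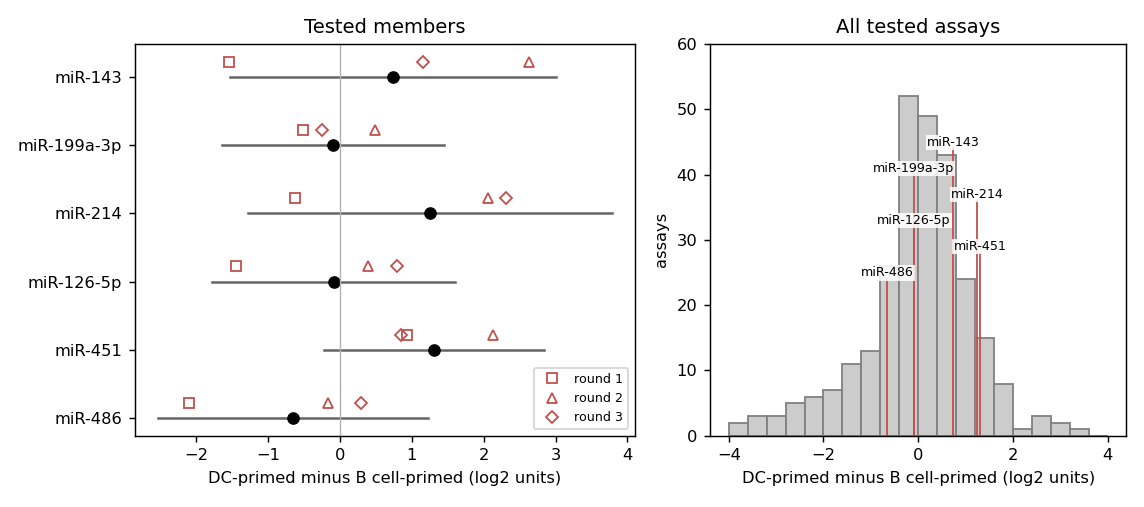
Left, difference between DC-primed and B cell-primed samples for the 6 tested members (log2 units), with limma's 95% confidence interval as a bar and the 3 rounds as open symbols. Right, the same differences (lines) among all 274 tested assays (grey bars, number of assays). Every interval includes 0, and the members lie between -0.66 and 1.31.

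The spread between DC-primed samples was larger than between B cell-primed samples in all 6 tested members, as in 79.6% of the 274 assays. The median SD of the members was 1.24 after DC priming and 0.43 after B cell priming, against 1.2 and 0.63 over all tested assays. DC-primed sample 1 was the lowest DC-primed sample for 6 of 6 tested members, as for 48.9% of all tested assays. It was the lowest of all 6 samples for 5 of them, all but miR-451, as for 34.7% of tested assays. Among the 137 tested assays with a mean Ct later than the median of 28.2, where 5 of the 6 members lie, these shares were 58.4% and 38.7%. The mean raw Ct of the 6 members was 29.0, 29.2 and 31.0 in DC-primed samples 1 to 3, while that of all tested assays was 26.3, 28.4 and 30.5. The part of Ct range or input in this order was not tested.

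Ratios of members that share a hairpin or locus do not depend on the normalization, and 5 such pairs could be formed. The miR-199a assays also read the copies on chr9, and that of miR-199a-3p also reads miR-199b-3p. Ratios with miR-199a are therefore not of 1 hairpin or locus alone. miR-144 over miR-451 was -2.46, -2.31 and -2.94 after DC priming and -1.03, -1.76 and -1.48 after B cell priming on the log2 scale. Every DC-primed sample lay below every B cell-primed sample. The difference was -1.15, from means of -2.57 ± 0.33 and -1.42 ± 0.37 (SD, n = 3 each; exact permutation p = 0.1, two-sided, which is the lowest that 3 against 3 can give, and 0.167 after Benjamini-Hochberg adjustment over 5 pairs). The replicate block, an exact sign-flip over 3 rounds, gave p = 0.25, its lowest. The difference was -0.96 without DC-primed sample 3, whose miR-144 Ct was just past the limit. Among the ratios of any 2 tested assays, 13.8% of 37401 separated the groups in 1 direction or the other.

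Of the pairs with miR-199a, miR-199a-3p over miR-214 was 0.24, -2.16 and -2.93 after DC priming and 0.13, -0.58 and -0.37 after B cell priming. DC-primed sample 1 was the highest of the 6 and the other 2 were the lowest, with a difference of -1.34 (exact permutation p = 0.4, adjusted 0.4). It was -2.27 without DC-primed sample 1 and -0.69 without DC-primed sample 3. miR-199a-5p over miR-214 was -4.36 and -4.05 in rounds 2 and 3 of DC priming and 0.28, -1.22 and -0.9 in the controls, a difference of -3.59. miR-199a-5p over miR-199a-3p was -2.20 and -1.12 against 0.15, -0.64 and -0.53, a difference of -1.32, which was -0.78 without DC-primed sample 2. For both ratios the measured DC-primed samples lay below all B cell-primed samples. The exact permutation p was 0.1 for each, the smallest that 2 against 3 allow (adjusted 0.167). An exact sign-flip over the 2 rounds with both values gave p = 0.5 for each. The 13.8% share given for ratios is of 3 samples against 3, and none was taken for 2 against 3. This separation is therefore not read as a result about the members.

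The arm ratio of miR-126 split the DC-primed samples. miR-126-3p over miR-126-5p was -2.42 in DC-primed sample 1, inside the B cell-primed range of -3.76 to -1.04, and -10.92 and -8.86 in DC-primed samples 2 and 3. The difference of -4.91 had an exact permutation p of 0.3 (adjusted 0.375). It was -3.15 without DC-primed sample 2 and -7.40 without DC-primed sample 1.

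**Figure D3:**
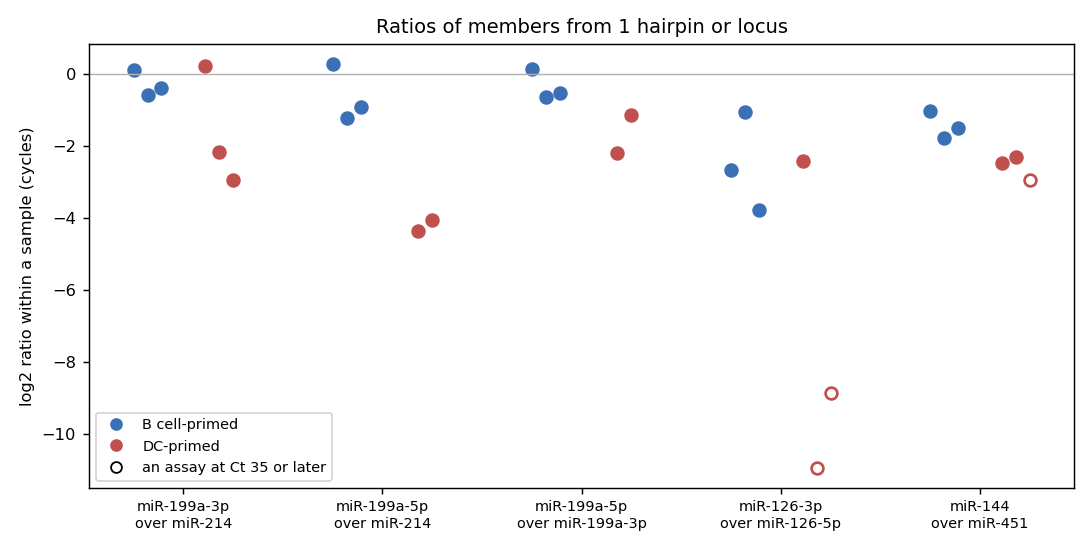
Log2 ratio of 2 members within each sample (difference of raw Ct, in cycles) for 5 pairs that share a hairpin or locus, B cell-primed in blue and DC-primed in red. The miR-199a assays also read copies at other loci. Open circles have an assay at Ct 35 or later, and the sample with no miR-199a-5p Ct is left out. The miR-144 over miR-451 ratio separates the groups by a difference of -1.15, and miR-126-3p over miR-126-5p reaches -10.92 in DC-primed sample 2.

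The directions of most members turned with the scaling. Without normalization the median difference of the 6 tested members was -1.002, against -1.26 over all 274 assays. Scaled to snoRD47 and RNY3 it was 1.56, against 1.30 over all. miR-126-3p was lower after DC priming under all 4 scalings plotted. So was miR-199a-5p with its filled-in value, but without that value it was higher when scaled to the reference RNAs, at 0.48. miR-126-5p, miR-199a-3p and miR-486 were higher relative to snoRD47 and RNY3, and miR-143, miR-144, miR-214 and miR-451 were lower without normalization. The snoRD47 and RNY3 wells had a mean Ct of 27.55 in DC-primed sample 2, where the authors subtracted 28.46. In DC-primed samples 1 and 3 they had 22.81 and 26.2, where 26.18 and 30.46 were subtracted. In the controls they had 21.66 to 23.73, where 26.35 to 27.63 were subtracted. The 2 numbers thus lay closest in DC-primed sample 2, and the reference scaling was not run without it.

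**Figure D4:**
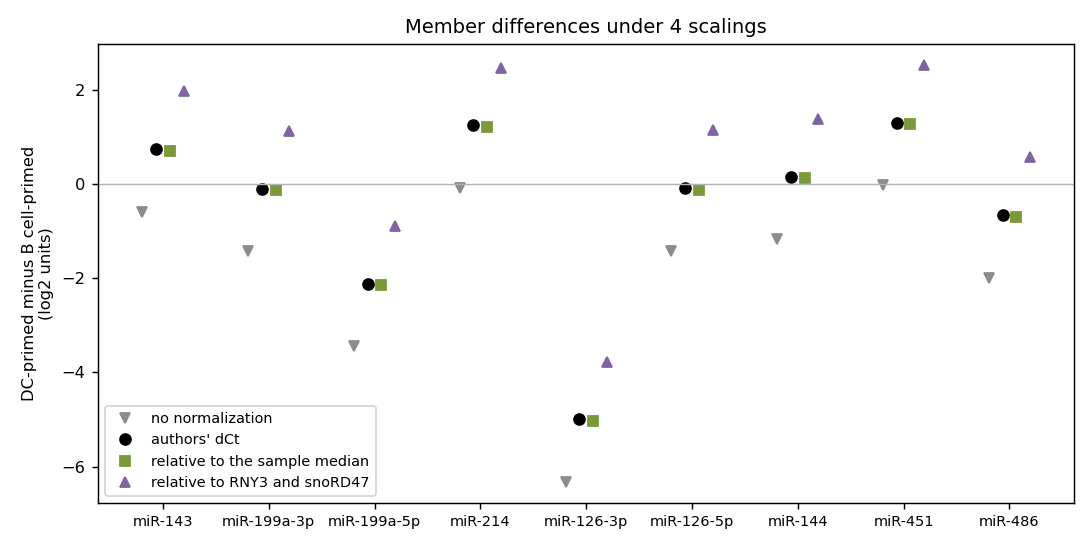
DC-primed minus B cell-primed difference (log2 units) for all 9 members under 4 scalings: no normalization, the authors' dCt, the sample median, and the reference RNAs snoRD47 and RNY3. The filled-in value of miR-199a-5p is included, and without it the reference RNAs give 0.48. miR-126-3p stays between -6.33 and -3.77, while miR-451 runs from -0.02 to 2.53.

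Other miRNAs linked to the same cell types were taken as lists for comparison, and those listed need not be particular to these cells. Of 11 further stromal, muscle and endothelial assays 10 were tested, and 8 were higher and 2 lower after DC priming. Their median difference was 0.84, and limma called 0. They ran from miR-222, abundant in endothelium and in activated T cells, at 2.94 ± 1.64 (SE; limma adjusted p = 0.707) to miR-125b-5p at -0.37 ± 0.71 (0.986). Their mean level was -2.63 to -0.58 in DC-primed and -2.61 to -2.44 in control samples. DC-primed sample 1 was the highest for this list and the lowest for the tested members. Of 6 further erythroid assays 3 were higher and 3 lower, with a median of 0.11, from miR-22 at 2.53 ± 1.47 (0.720) to miR-363 at -2.02 ± 0.75 (0.439), again with 0 called. miR-22 is also on the myeloid list.

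Myeloid and dendritic markers had the highest median of the lists, at 2.53, and limma called 0 of the 5 tested. All 5 had a positive difference, from miR-34a at 0.80 to miR-147 at 3.25 ± 1.17 (SE; limma adjusted p = 0.436). Their mean level was -0.14 to 3.37 after DC priming and -1.41 to -0.92 after B cell priming. With the 2 markers that did not enter the test the groups overlapped: over all 7, DC-primed sample 3 was at -2.22, below the controls at -2.16 to -1.71. These 2 were past Ct 35 in that sample alone. For the defining marker miR-223 the Ct was 20.82, 27.23 and 36.99 after DC priming and 32.14, 32.44 and 32.67 after B cell priming. For miR-146b it was 21.46, 24.36 and 38.77 against 27.6, 29.19 and 31.85. Of the lymphoid list 6 of 7 tested assays were higher and 0 called, from miR-342-3p at -0.42 ± 0.63 to miR-181a at 1.31 ± 1.19 (SE), with a median of 0.62. Their mean level was -0.24 to 3.22 against 1.08 to 1.54. The part of carried-over priming cells in the member values was not tested.

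The profiles most like those of the members, by root mean square distance over the 6 samples after centring, were those of assays outside the member list. The nearest assay to miR-214 was miR-139-3p, at 0.289 cycles against a median of 1.60 over all tested assays, and then miR-297a* at 0.432. For miR-451 they were miR-875-5p at 0.328 and miR-212 at 0.398, and for miR-143 miR-7a* at 0.337 and miR-763 at 0.576. The nearest to miR-126-5p were miR-335-3p at 0.236 and the human-named miR-506 at 0.290. Those to miR-199a-3p were miR-141* at 0.247 and the human-named miR-523 at 0.307, and those to miR-486 were miR-452 at 0.303 and miR-770-3p at 0.324. No member had another member among its 2 nearest assays. With 6 members among 274 tested assays this says little about whether they moved together.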

How the data were processed

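Per the file headers, the authors deposited raw threshold cycles (Ct), dCt values and a fold-change table, and the names of the Ct and dCt files state the reverse of their headers. The deposited dCt, a log2 scale with the sign turned, subtracts from each Ct a single number for its sample, given in the headers as the geometric mean Ct. The authors' p-value comes from a paired test with 2 tails, per the file headers, and their fold is the ratio DC-primed over B cell-primed. The authors filled in 10 Ct values. The instrument is not named in the sources used here.

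Assays with Ct below 35 in all 6 samples were tested with limma 3.58.1 in R 4.3.3 (no block, two-sided, Benjamini-Hochberg over 274 assays, threshold 0.05). The fit was also run on simulated data, with changes larger than the difference of any tested member. Ratios used exact permutation in Python 3.11.15; figures used matplotlib 3.10.9. The labels do not say whether rounds were separate animals. The spread behind each p-value is that between these samples alone and may be technical. Deviations of same-round samples correlated at 0.16, 0.14 and 0.46, though DC-primed sample 1 correlated at 0.33 with B cell-primed sample 2. Rounds were taken to pair samples only in the differences by round, the replicate block and the authors' test. The main limma fit was unpaired.

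Members and lists were chosen with earlier results of these data known. Named assays were the members, other assays of the same names, the 2 nearest profiles, and each list's largest and smallest difference; miR-223, miR-146b, miR-142-3p, miR-150, miR-155, let-7i* and miR-449a were named after their values were seen. Alternatives were 4 scalings, 3 detection limits, each sample left out, and the replicate block.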

Additional observations from a re-analysis of the deposited data

How the results depend on the processing

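The count of assays called was 0 under every alternative that kept all 6 samples. It was 0 to 2 with single samples left out (2 without DC-primed sample 3) and 5 with that sample left out of fit and detection filter, no member among them. With the replicate block limma called 0 (smallest adjusted p = 0.0522, against 0.228 in the main limma fit), and the block changed no call of a member. The members' median was -1.002 without normalization and 1.56 when scaled to snoRD47 and RNY3. The count of non-overlapping members, 1 in the main comparison (miR-451), was also 1 without normalization, but that was miR-486. It was 0 with a Ct limit of 32 (miR-451 not tested) and 3 with no filter (adding miR-126-3p and miR-199a-5p). With a sample left out it was 1 to 3 (3 without DC-primed sample 1, adding miR-143 and miR-214). With DC-primed sample 3 out of the fit and filter it was 2 (adding miR-486). The share over all assays was not taken in any of these alternatives, and 2 samples against 3 separate more readily than 3 against 3. These counts are therefore not a result about the members. Signs turned without normalization for miR-143 at -0.59, miR-144 at -1.17, miR-214 at -0.080 and miR-451 at -0.023. They turned relative to snoRD47 and RNY3 for miR-126-5p at 1.14, miR-199a-3p at 1.13 and miR-486 at 0.57, and, with its filled-in value left out (chosen after seeing the data), for miR-199a-5p at 0.48, and with quantile normalization for miR-126-5p at 0.032. With single samples left out the ranges that crossed 0 were -0.57 to 0.50 for miR-126-5p, -0.45 to 0.30 for miR-199a-3p, -0.30 to 0.44 for miR-144 and -1.34 to 0.042 for miR-486. The causes were not tested, and the turns relative to snoRD47 and RNY3 were not retaken without DC-primed sample 2, where the reference wells were late. Setting late Ct values to the limit was chosen after seeing the data. Beyond Ct 35 the level of miR-126-3p in DC-primed samples 2 and 3 is only a bound. DC-primed sample 1 gave no Ct for miR-199a-5p, so its level there is not known and may lie below the filled-in value.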

Other observations

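The human-named assay miR-199b-5p, from a further copy of the miR-199 hairpin, read Ct 36.54, 33.74 and 36.6 after DC priming and 32.88, 34.57 and 37.11 after B cell priming. It was below 35 in 1 DC-primed and 2 B cell-primed samples, so the order within each group is only partly measured.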
